A study of Mus musculus with 435 samples.

Results

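Gonadal somatic cells of XY mouse embryos were compared between E10.5 and E13.5, the only stages read to 25 M reads per library by their labels. The cells were taken by stage and sequencing run, as the names of their columns give them, and no expression value was used to choose them. They number 171 of the 396 cells kept in the series, with 59 cells from the 1 capture at E10.5 and 56 and 56 cells from the captures of E13.5. Of 435 labelled cells in the series 400 had values here, and for these stages 59 of 64, 56 of 56 and 56 of 64 did.

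The study followed single RNA libraries of cells from the fetal testis over 5 stages. All embryos, at both ages, carried the NR5A1-eGFP transgene on a mixed background, and no other allele or treatment is given. The reporter is green where the promoter of Nr5a1 is active, and cells were sorted for that green signal after brief trypsin digestion and loaded on microfluidic chips (Fluidigm C1), where cDNA was made by the SMARTer chemistry. The E10.5 cells and the second E13.5 capture used small chips and the first E13.5 capture a medium chip, so 1 of the E13.5 captures also differs from E10.5 in chip size. Neither the number of embryos in a capture nor separate litters for captures are stated, so p-values measure only the spread between captures.

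Nr5a1 (also called SF-1) is a nuclear receptor that marks the precursors of the gonad and the adrenal cortex and later the cells that make steroids. In the genital ridge of the earlier stage the sexes have not yet diverged, and the somatic cells are dividing precursors from the coelomic epithelium and the mesenchyme. In an XY gonad of the later stage Sertoli cells enclose the germ cells in testis cords, fetal Leydig cells make androgens, and a stroma rich in extracellular matrix lies between the cords.

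The captures were alike in depth. Depth, worked out from the smallest steps in a cell's values, had a median of 7.91 M reads in the E10.5 capture and of 8.1 and 7.83 M reads in those of E13.5. A median of 6503 genes was detected per cell at E10.5 and of 6349 and 5663 genes at E13.5, and the median sum of RPKM (reads scaled by transcript length and by library size) per cell was 275980 at E10.5 against 315655 and 270394. The reporter itself, eGFP, had a mean of 683 RPKM at E10.5 and of 1223 and 1321 RPKM at E13.5 (log2 difference 0.9, SE 0.41, adjusted p = 0.547), and its host gene Nr5a1 went from 13 to 25.8 and 27.9 RPKM (log2 difference 0.99, SE 0.458, adjusted p = 0.558). Neither passed the test, although the E10.5 value lay below both E13.5 values in each case.

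Of 12313 genes tested, 131 differed at an adjusted p under 0.05 in the limma test on log2(capture mean + 1), 13 of them lower at E13.5 and all others higher. The genes called higher are 0.958% and those called lower 0.106% of the genes tested. The median log2 difference over all genes tested was 0.078. In all 131 genes the E10.5 value lay outside both E13.5 values, as it did in 69.4% of all genes tested. E10.5 has 1 capture, so its spread was taken from the captures of the other stages. With the mean of log2 values over cells, which weights how many cells hold a transcript more than how much they hold, 69 genes were higher (0.56%) and 169 lower (1.37%). Of the 131 genes 54 were called by both measures, 45 higher and 9 lower, none in opposite directions. Without the first E13.5 capture, which leaves small chips only at these stages, 39 genes were higher and 2 lower. A broad rule took any cell with 3 markers of each of 2 cell types as a possible doublet. It removed 32, 37 and 26 of the cells of the 3 captures, and after it 1 gene, Aldh1a1, was called. Whether these cells are doublets was not tested, and a stricter rule, added after the data were seen, removed 0, 4 and 1.

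The 12 genes named first have the largest differences upward among called genes that met the naming rule. It asked for a mean of 5 RPKM over the E13.5 captures and 20% of cells in each, and left out predicted models. Of the 12 genes 4 belong to the list of Sertoli differentiation and 3 to that of glutathione transferases. Aldh1a1, an enzyme that makes retinoic acid, had a mean of 0.0928 RPKM at E10.5 and of 538 and 307 RPKM at E13.5. Both later captures were far above the earlier one, and the log2 difference was 8.54 (SE 0.659, adjusted p = 0.000209). Defb19, a secreted beta-defensin, went from 0.423 to 1390 and 173 RPKM (8.44, SE 1.008, adjusted p = 0.00184), and the E13.5 captures differed from each other in it more than in most of these genes. Ptgds, the prostaglandin D synthase that acts in Sertoli cell commitment, was at 0.0396, 299 and 72 RPKM (7.15, SE 0.862, adjusted p = 0.00184). Aard, an alanine- and arginine-rich testis protein, was at 0.0846, 113.4 and 36.1 RPKM (5.91, adjusted p = 0.00175). In each of these genes the medium-chip capture was the higher of the E13.5 captures.

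Clu, a secreted chaperone, had a mean of 4.37 RPKM at E10.5 and of 878 and 253 RPKM at E13.5, a log2 difference of 6.46 (SE 0.596, adjusted p = 0.000345). Kctd14, a potassium channel tetramerisation domain protein, was higher in the second E13.5 capture, with 0.108, 66.5 and 150 RPKM (6.51, SE 0.671, adjusted p = 0.000652). It did not pass with the mean of log2 values (difference 2.69, SE 1.285, limma adjusted p = 0.377). Mapk13, a stress-activated kinase of the p38 group, rose from 0.00565 to 66.7 and 34.3 RPKM (5.6, adjusted p = 0.00457). Ifi27, a gene known from interferon responses, rose from 0.0104 to 84.8 and 27.2 RPKM (5.61, adjusted p = 0.00167). With the mean of log2 values the adjusted p was 0.0564 for Mapk13 and 0.0106 for Ifi27. Mapk13 had an adjusted p of 0.0829 without the first E13.5 capture.

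**Figure D1:**
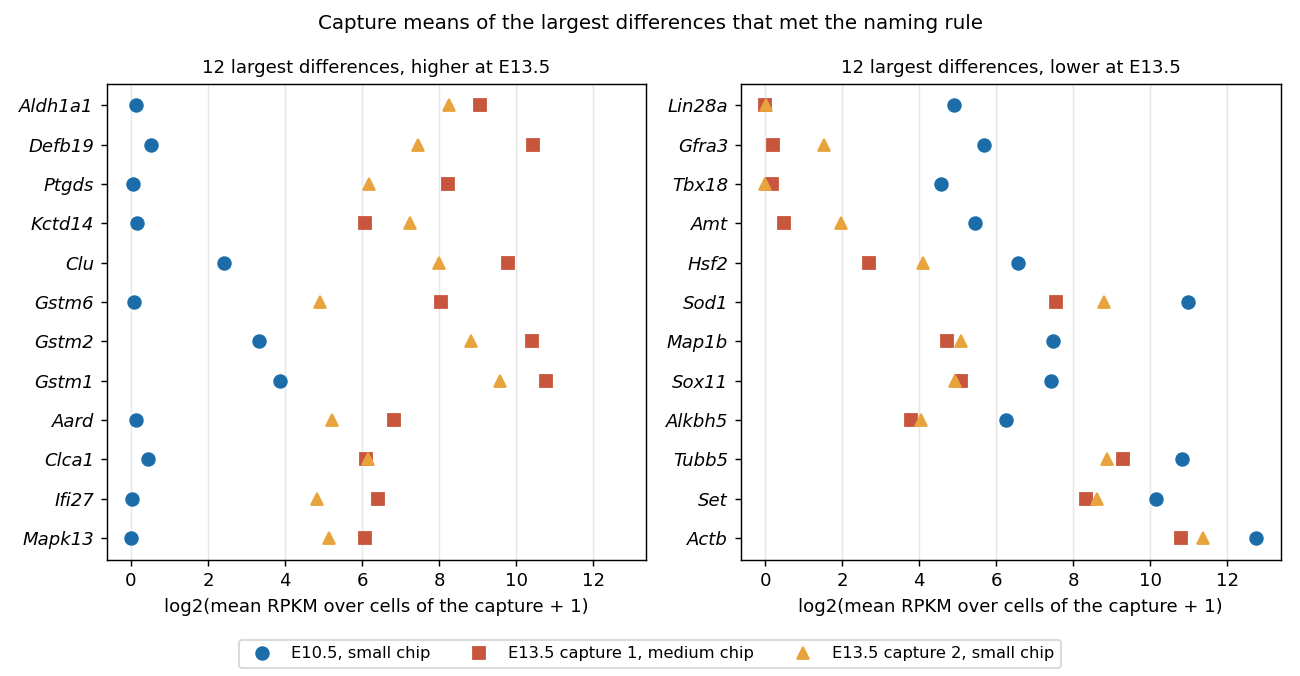
Mean level of each gene over the cells of a capture, as log2(RPKM + 1), for the 12 genes each way with the largest difference among those that met the naming rule. Points are the E10.5 capture and both E13.5 captures; the naming rule took only genes in which the E10.5 point lies outside both E13.5 points, as it does in 69.4% of genes tested, and the medium-chip capture is the higher E13.5 point in most of the genes on the left (Defb19 at 1390 against 173 RPKM).

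Of the 29 tested genes of Sertoli differentiation 10 rose and none fell, with a median log2 difference of 3.22. Over all genes tested 0.958% were called higher and 0.106% lower, the shares to set beside the counts of this and later lists. The lists and their members were chosen with earlier results of these data known. The 10 are Aldh1a1, Defb19, Ptgds, Aard, Mmd2, Rhox8, Vnn1, Mro, Inha and Serpine2, and 27 of the 29 differences were positive. Vnn1 and Ptgds were the 2 of the 29 that rose with the mean of log2 values (median 1.23), and the adjusted p was 0.0579 for Aldh1a1, 0.0756 for Defb19, 0.0655 for Aard and 0.134 for Inha. Leaving out the first E13.5 capture gave 0.0709 for Serpine2, 0.19 for Mro and 0.329 for Rhox8. Inha, the alpha subunit of inhibin, had 4.2 RPKM at E10.5 and 68.3 and 66.5 RPKM at E13.5 (log2 difference 3.72, SE 0.395, adjusted p = 0.000754). Its E13.5 captures were nearly equal, unlike those of Defb19. Vnn1, a pantetheinase, was similar in that respect, with 7.19, 188 and 179 RPKM (4.5, SE 0.423, adjusted p = 0.000345).

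Amh, Dhh and Sox9, which define the lineage, did not pass the test. Amh, the hormone that makes the Müllerian ducts regress, was at 0.00126 RPKM at E10.5 and at 17.9 and 3.59 RPKM at E13.5, a log2 difference of 3.22 that did not pass the test (SE 0.939, adjusted p = 0.18). Dhh, the hedgehog ligand that signals to Leydig cell precursors, was at 0.00203, 12.3 and 6.11 RPKM (3.28, SE 0.9, adjusted p = 0.147). Amh was found at 1 RPKM or more in 0 of 59 cells at E10.5, which allows a share of up to 5.08%, and in 18 and 8 of 56 cells at E13.5. Sox9, the transcription factor that starts Sertoli differentiation, had 60.3 RPKM at E10.5 and 61 and 45 RPKM at E13.5, and was found in 48 of 59 cells and in 37 and 28 of 56 cells. Sox9 transcript was thus present in a larger share of cells at E10.5 (81.4%) than at E13.5 (66.1% and 50%). Sry was listed at 0 in all 3 captures.

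Glutathione transferases, enzymes that join glutathione to reactive compounds, rose in 4 of 16 tested members and fell in none, and 15 differences were positive, with a median of 1.78. By the mean of log2 values Gstm1, Gstm2 and Mgst1 rose. Gstm1 had a mean of 13.6 RPKM at E10.5 and of 1740 and 763 RPKM at E13.5 (log2 difference 6.3, SE 0.503, adjusted p = 0.000209). Gstm2 went from 8.93 to 1365 and 452 RPKM (6.31, SE 0.594, adjusted p = 0.000345). Gstm6 was listed at 0.0516, 263 and 29 RPKM (6.4, SE 1.257, adjusted p = 0.0335), and without the first E13.5 capture its adjusted p was 0.289. Mgst1, a membrane-bound member from another family, rose from 22 to 245 and 134 RPKM (2.98, SE 0.425, adjusted p = 0.00506). The Gstm genes are near-identical neighbours on chromosome 3, so how reads were divided between them is uncertain.

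Among genes of steroid synthesis and Leydig cells 5 of 14 rose and none fell (median 2.05). Cyp11a1, the enzyme that makes pregnenolone from cholesterol, was at 0.00223 RPKM at E10.5 and at 113.95 and 31.4 RPKM at E13.5 (log2 difference 5.93, SE 0.748, adjusted p = 0.00242). Star, which carries cholesterol into mitochondria, was at 0.334, 55.3 and 47.1 RPKM (5.29, SE 0.848, adjusted p = 0.0113), and Cyp17a1, which makes androgen precursors, at 0.00123, 93.9 and 32.8 RPKM (5.82, SE 1.15, adjusted p = 0.0346). Hsd3b1, the dehydrogenase of the same pathway, was already at 13.1 RPKM at E10.5 and reached 173 and 109.4 RPKM (3.3, SE 0.683, adjusted p = 0.0441). Ren1, the renin of the angiotensin pathway, rose from 0.973 to 110.3 and 104.9 RPKM (5.78, SE 1.102, adjusted p = 0.0286). Without the first E13.5 capture the adjusted p was 0.34 for Cyp17a1, 0.237 for Ren1, 0.141 for Star and 0.339 for Hsd3b1, and without the second it was 0.0846 for Cyp17a1, 0.137 for Ren1, 0.0678 for Star and 0.102 for Hsd3b1. Cyp11a1, Cyp17a1 and Star were not called once the stricter doublet rule had removed 0, 4 and 1 cells of the captures. Ren1 was the only call of the list with the mean of log2 values (median 0.41). In mice Ren1 has a near-identical copy in some strains, so its reads may be shared.

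These means rest on few cells. Cyp11a1 was seen in 0 of the 59 E10.5 cells (Wilson 95% upper bound 6.11%). It was seen in 8 of 56 cells of the first E13.5 capture (14.3%, Wilson 95% interval 7.42 to 25.7) and in 4 of 56 of the second (7.14%, 2.81 to 17). Insl3, a hormone of mature fetal Leydig cells, was found in 0, 6 and 1 cells. In bulk means of this kind fewer cells of a type and less RNA per cell cannot be told apart, so shares of cells with at least 1 RPKM were counted for the genes that follow. With 1 capture against 2 there are 3 ways to split them and no exact permutation test can go below p = 0.333, so shares are given with their Wilson intervals, which cover counting error only, and without a test.

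Of the 20 tested genes of fibrillar and interstitial matrix 5 rose and none fell (median 2.5), and 18 differences were positive. Col6a1, a chain of the microfibrillar collagen VI, was at 0.0438 RPKM at E10.5 and at 32.8 and 35.5 RPKM at E13.5 (log2 difference 5.07, SE 0.685, adjusted p = 0.00364), and it was found in 1 of 59 cells against 34 and 35 of 56. Bgn, the proteoglycan biglycan, went from 4.01 to 57.1 and 48.1 RPKM (3.41, SE 0.471, adjusted p = 0.00423). Dcn, its relative decorin, was at 22.2, 349 and 246 RPKM (3.66, SE 0.526, adjusted p = 0.00533). Mfap4, a microfibril-associated protein, was at 7.39, 117.2 and 64.3 RPKM (3.39, adjusted p = 0.0119), and Sparc at 189, 618 and 661 RPKM (1.75, adjusted p = 0.0167). Sparc was present in 58 of 59 E10.5 cells and in every cell at E13.5, so its difference was one of level, whereas Col6a1 went from nearly no cells to more cells than not. With the first E13.5 capture left out, adjusted p was 0.0512 for Col6a1, 0.0641 for Dcn and 0.119 for Mfap4. By the mean of log2 values 8 genes of the list rose, namely Dcn, Bgn, Col6a1, Mfap4, Col6a2, Fbn1, Thbs1 and Col6a3.

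Of 14 tested basement membrane genes only Col18a1 passed the test. Its mean was 7.14 RPKM at E10.5 and 38.6 and 57.8 RPKM at E13.5 (log2 difference 2.57, SE 0.538, adjusted p = 0.0471), and the median of the list was 0.85. Its adjusted p was 0.149 and 0.179 without the first and the second E13.5 capture, 0.0551 with median-ratio scaling and 0.0509 without cells of other types. Acta2, the actin of smooth muscle and peritubular cells, was the only called member of 13, at 6.14, 495 and 106.8 RPKM (5.02, SE 0.968, adjusted p = 0.03). The list's median was 1.55 with 11 of 13 differences positive. For Acta2 the adjusted p without the first E13.5 capture was 0.277.

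Wnt5a, Inhba, Ednra and Igfbp7, which act as secreted signals, receptors or their partners, rose as well, and so did Clca1. Wnt5a, a Wnt ligand that acts outside the beta-catenin route in many tissues, had a mean of 1.33 RPKM at E10.5 and of 59.1 and 81.5 RPKM at E13.5 (log2 difference 4.92, SE 0.485, adjusted p = 0.000489). It was found in 4 of 59 cells (6.78%, Wilson 95% interval 2.67 to 16.2) and in 44 (78.6%, 66.2 to 87.3) and 40 of 56 (71.4%, 58.5 to 81.6). Inhba, the beta A subunit shared by activin and inhibin, was at 0.384, 31.8 and 38.6 RPKM (4.7, SE 0.682, adjusted p = 0.00565). Ednra, a receptor for endothelin, was at 1.14, 40.1 and 42.5 RPKM (4.3, SE 0.703, adjusted p = 0.0125). Igfbp7, a binding protein of the insulin-like growth factor family, was at 1.75, 46 and 23.2 RPKM (3.62, SE 0.702, adjusted p = 0.031). Clca1, named as a member of the calcium-activated chloride channel regulators, was at 0.355, 68.1 and 69.7 RPKM (5.69, SE 0.565, adjusted p = 0.000489) and went from 1 cell to 42 and 37 cells. Leaving out the first E13.5 capture gave an adjusted p of 0.12 for Ednra, 0.291 for Igfbp7 and 0.0641 for Inhba, and leaving out the second gave 0.0762 for Ednra and 0.0637 for Igfbp7.

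Few other members of these pathways passed the test. Wnt5a was the only call among 29 genes of Wnt and beta-catenin signalling (median 0.02), Inhba and Inha were the only ones of 27 genes of the TGF-beta, inhibin, activin and BMP families (0.37), Igfbp7 of 14 insulin and IGF genes (0.31) and Ednra of 17 vascular and paracrine genes (0.44). Aldh1a1 was the only call of 15 retinoic acid genes, whose median was -0.55. No member was called of 12 hedgehog genes (median 0.83), 12 Notch genes (-0.15) or 16 FGF genes (-0.31). Ptch1, the hedgehog receptor and target gene, had 7.44 RPKM at E10.5 and 20.1 and 34.2 RPKM at E13.5 (log2 difference 1.69, adjusted p = 0.428). Flrt3, a membrane protein that binds FGF receptors, had 65.4, 8.56 and 13.6 RPKM (-2.49, adjusted p = 0.395). Wnt5a and Inhba were also higher by the mean of log2 values, and Crabp2, Aldh1a2, Rarb, Bmp4, Fzd1, Flrt3, Igf2r and Angpt1 of these lists were lower.

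**Figure D2:**
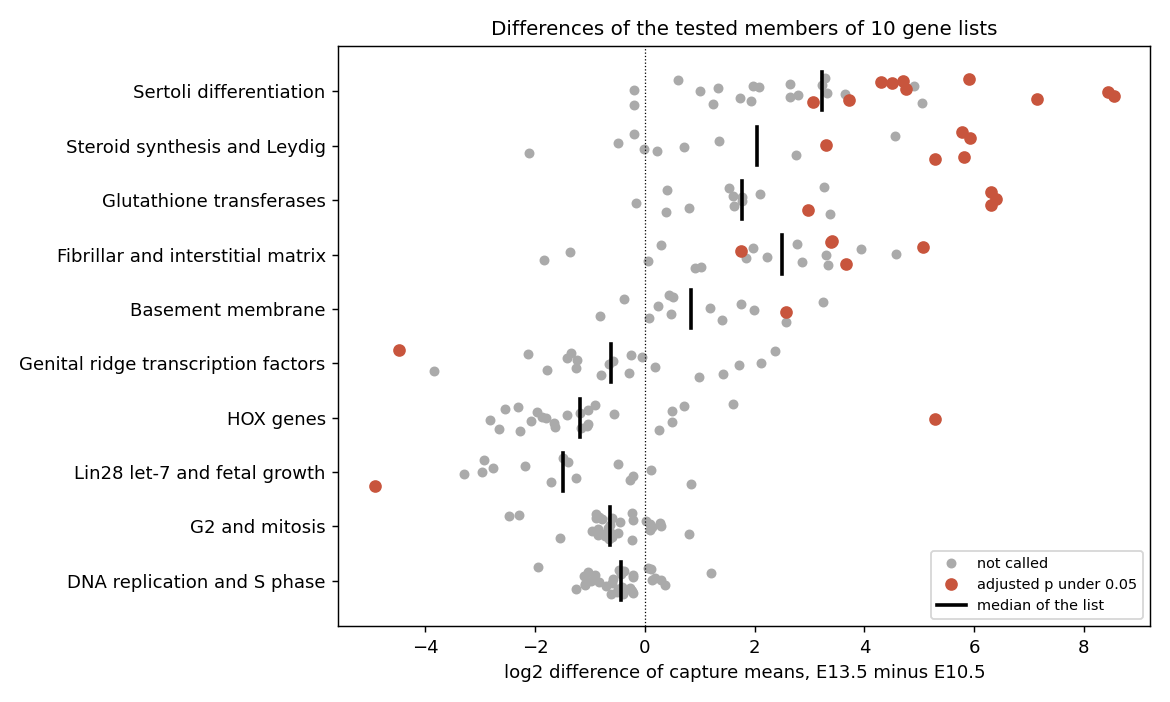
Each point is a tested gene of 1 of 10 lists, placed by its log2 difference of capture means (E13.5 minus E10.5); filled red points passed the test at an adjusted p under 0.05 and black bars are list medians. Sertoli genes have a median of 3.22 with 10 called, and the Lin28 and fetal growth list a median of -1.49 with 1 called.

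Lin28a had the largest difference among the 13 genes that fell. This gene, an RNA-binding protein that blocks maturation of let-7 microRNAs, had a mean of 29.2 RPKM at E10.5 and of 0.00193 and 0.00927 RPKM at E13.5 (log2 difference -4.91, SE 0.756, adjusted p = 0.00873). Lin28a transcript was seen in 34 of the 59 E10.5 cells (57.6%, Wilson 95% interval 44.9 to 69.4). It was seen in 0 of 56 cells of each E13.5 capture (Wilson 95% upper bound 6.42% in each). Lin28a was the only called gene of the 15 tested for the Lin28, let-7 and fetal growth list, in which 13 differences were negative and the median was -1.49. Its paralogue Lin28b, named here after its values were seen, was at 6.92, 0.00177 and 0.014 RPKM (-2.97, SE 0.699, adjusted p = 0.0805) and was found in 23 of 59 cells and in no cell at E13.5. With the mean of log2 values 7 of the 15 genes were lower, namely Hmga1, Igf2bp1, Prtg, Lin28a, Arid3a, Lin28b and Arid3b. The adjusted p of Lin28a without the first E13.5 capture was 0.0912, and without the second it was 0.0516.

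Gfra3, a co-receptor for ligands of the GDNF family, had 49.9 RPKM at E10.5 and 0.147 and 1.86 RPKM at E13.5 (log2 difference -4.81, SE 0.981, adjusted p = 0.0407), and went from 36 of 59 cells to 1 and 1 of 56. It was the only call of 5 tested genes of that family (median 0.26). Tbx18, a T-box factor of urogenital mesenchyme, was at 22.8, 0.137 and 0.00573 RPKM (-4.47, SE 0.836, adjusted p = 0.0285). Its transcript was found in 24 of 59 cells and in 1 and 0 of 56. Tbx18 was the only call of 20 tested genital ridge transcription factors, whose median was -0.62. The classic factors of that list did not pass: Wt1 was at 58.5, 55.5 and 79 RPKM (0.18, adjusted p = 0.975), Gata4 at 17.9, 56.8 and 66 RPKM (1.72, adjusted p = 0.316) and Lhx9 at 29.3, 24.9 and 31.9 RPKM (-0.05, adjusted p = 1). Nr2f1, Tbx18, Foxc1 and Foxc2 were the 4 of the 20 factors that were lower by the mean of log2 values. Without the first E13.5 capture adjusted p was 0.307 for Gfra3 and 0.187 for Tbx18, without the second it was 0.0775 and 0.12, and without cells of other types it was 0.0662 for Gfra3.

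Sox11, a SOX factor of progenitor cells, fell from 170 to 32.7 and 29.6 RPKM (log2 difference -2.41, SE 0.506, adjusted p = 0.0471) and was present in every E10.5 cell, against 37 and 49 of 56 cells at E13.5. Map1b, a microtubule-associated protein, fell from 176 to 25.5 and 32.9 RPKM (-2.56, SE 0.413, adjusted p = 0.0115). Hsf2, a heat shock factor of embryonic tissues, was at 93.1, 5.44 and 16.2 RPKM (-3.16, adjusted p = 0.039), and Amt, an enzyme of glycine cleavage, at 43, 0.415 and 2.93 RPKM (-4.22, adjusted p = 0.0286). Alkbh5, which removes methyl groups from RNA, was at 75.9, 12.9 and 15.5 RPKM (-2.35, adjusted p = 0.0471).

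Another 4 of the 13 lower genes were present in nearly every cell. Sod1, the cytosolic superoxide dismutase, had 2005 RPKM at E10.5 and 187 and 448 RPKM at E13.5 (log2 difference -2.79, SE 0.526, adjusted p = 0.0285). Actb, cytoplasmic beta-actin, had 6853, 1772 and 2652 RPKM (-1.66, SE 0.29, adjusted p = 0.0177). Tubb5, a beta-tubulin, had 1801, 629 and 471 RPKM (-1.72, SE 0.296, adjusted p = 0.0167) and Set, a histone chaperone, 1130, 318 and 393 RPKM (-1.67, SE 0.314, adjusted p = 0.0285). Each of these 4 genes was found in at least 96.6% of the cells of each capture, so they differed in level and not in the share of cells. All have processed pseudogenes, which can take reads from them. With the mean of log2 values Actb, Tubb5 and Set did not pass (adjusted p = 0.125, 0.0835 and 0.173), while Sod1 did (adjusted p = 0.0392). Adjusted p without the first E13.5 capture was 0.15 for Sod1, 0.0583 for Map1b, 0.2 for Sox11, 0.211 for Hsf2, 0.211 for Amt, 0.214 for Alkbh5 and 0.0553 for Set, and it was 0.02 for Actb and 0.00639 for Tubb5. It was 0.136 for Sox11 and 0.0922 for Alkbh5 without the second, and 0.0503 for Hsf2 and 0.0673 for Alkbh5 without cells of other types. With the 3 captures of these stages alone in the fit, adjusted p was 0.432 for Actb, 0.307 for Tubb5 and 0.308 for Set.

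**Figure D3:**
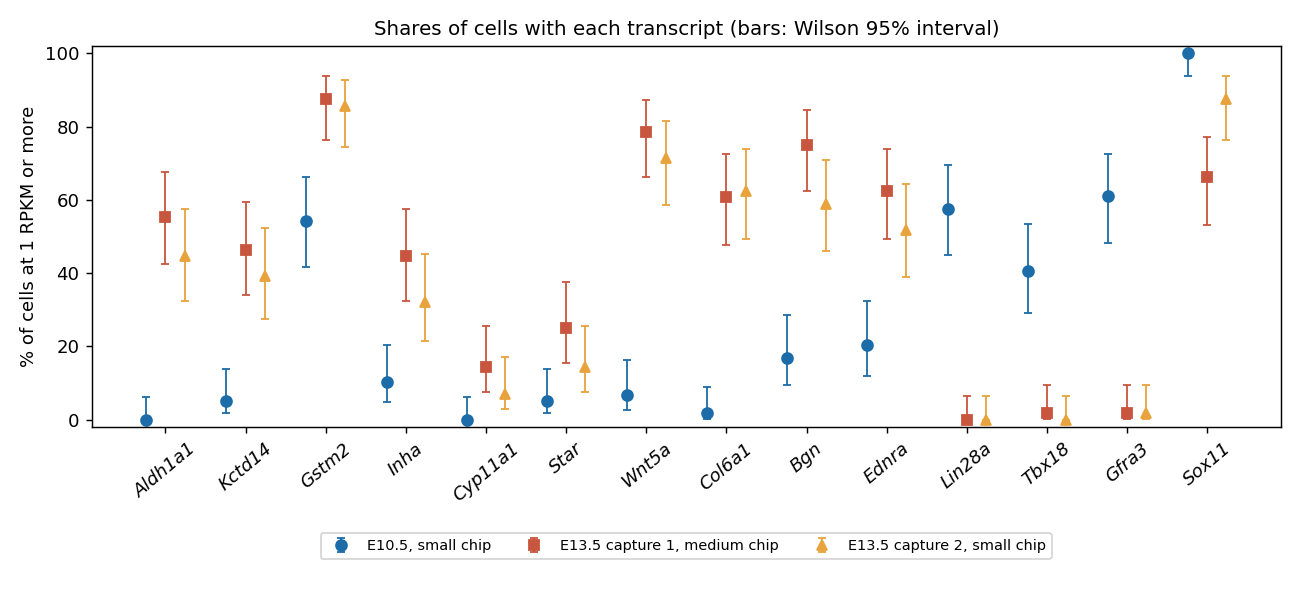
Share of cells of each capture in which a gene was at 1 RPKM or more, with its Wilson 95% interval (counting error only), for 14 genes. Wnt5a goes from 6.78% at E10.5 to 78.6% and 71.4% at E13.5 and Lin28a from 57.6% to 0% and 0%, while Cyp11a1 reaches at most 14.3% of a capture.

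HOX genes give cells their position along the body axis. Hoxd10 rose from 0.0328 to 40.9 and 37.8 RPKM (log2 difference 5.29, SE 0.638, adjusted p = 0.00184) and from 1 of 59 to 17 and 15 of 56 cells. It was the only call of 25 tested HOX genes, of which 6 had positive and 19 negative differences and whose median was -1.18. With the mean of log2 values, where Hoxd10 did not pass, 9 HOX genes were lower, namely Hoxc8, Hoxa7, Hoxa5, Hoxb6, Hoxb7, Hoxa9, Hoxb9, Hoxa2 and Hoxb5. Nr4a1, an orphan nuclear receptor and immediate early gene, rose from 1.97 to 49.8 and 70.8 RPKM (4.35, SE 0.547, adjusted p = 0.00242) and was the only call of 23 immediate early and stress genes (median 0.13), of which 11 had negative differences. Genes of that list respond to tissue digestion as well, and their part in the result was not tested.

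Genes of the cell cycle had negative medians and no call in the test on capture means. The median was -0.63 over 30 genes of G2 and mitosis, 23 of them negative, and -0.43 over 34 genes of DNA replication, 27 of them negative. With the mean of log2 values the medians were -0.99, with Cdc20, Ckap2 and Plk1 called lower, and -1, with no call. Rrm2, a subunit of ribonucleotide reductase, had 276 RPKM at E10.5 and 146 and 111.2 RPKM at E13.5 (log2 difference -1.11, adjusted p = 0.558) and was detected in 81.4% of its cells against 57.1% and 50%. Ccnb2, a mitotic cyclin, had 110, 47.8 and 72.1 RPKM (-0.89, adjusted p = 0.702) and was found in 64.4%, 35.7% and 32.1% of cells. Top2a, the topoisomerase of dividing cells, was found in 66.1%, 44.6% and 37.5%. For Rrm2, Ccnb2 and Top2a the share was highest at E10.5.

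The remaining lists gave no call in the test on capture means. The medians were 0.18 over 35 genes of oxidative phosphorylation, -0.28 over 20 of glycolysis, -0.34 over 22 of cholesterol synthesis and uptake, -0.12 over 8 CDK inhibitors and Rb family genes and -0.85 over 19 imprinted genes. For the interstitial progenitor list it was 1.17 over 16 genes, for the coelomic epithelium 0.13 over 13, for the pro-ovarian supporting cell list -0.3 over 10 and for Y-linked genes 0 over 5. Cdkn1c, an imprinted CDK inhibitor, had 337 RPKM at E10.5 and 112.9 and 232 RPKM at E13.5 (log2 difference -1.05, adjusted p = 0.476). Pkm, the pyruvate kinase, had 648, 190 and 292 RPKM (-1.46, adjusted p = 0.147) and Ldhb, a lactate dehydrogenase subunit, 292, 643 and 560 RPKM (1.03, adjusted p = 0.352). Tcf21, a factor of interstitial precursors, had 41.1, 165 and 201 RPKM (2.12, adjusted p = 0.168), and Aldh1a2, the retinoic acid enzyme of the coelomic epithelium, 137, 35.7 and 66.4 RPKM (-1.47, adjusted p = 0.24). The imprinted genes Asb4, Peg10, Cdkn1c and Igf2r were lower with the mean of log2 values (median of the list -1.35), as were Aldh1a2, Fzd1, Sc5d and, of the interstitial progenitor list, Nr2f1.

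Markers of other cell types that such a sort could hold were summed in each capture, and their part in the differences above was not tested. The 5 mesonephric genes in the values summed to 29.8 RPKM at E10.5 and to 0.8 and 3.2 RPKM at E13.5, all 4 tested members were lower (median -2.33, no call), and Pax2 was at 0 at E13.5. The 6 genes of the adrenal cortex summed to 98.2, 46.7 and 28.3 RPKM, and Cyp21a1, which defines that tissue, was at 0 in every capture. Mc2r, the ACTH receptor, made up most of the E10.5 sum, with 85.5 RPKM in 27 of 59 cells against 5.17 and 20.5 RPKM (log2 difference -2.91, adjusted p = 0.205). Of the 4 tested adrenal genes 2 had positive and 2 negative differences. Akr1b7 was at 3.31 RPKM at E10.5 and at 28.6 and 1.52 RPKM at E13.5. The 13 germ cell genes summed to 7.3, 23.4 and 10.3 RPKM, with 9 of them at 0 at E10.5, and the 11 endothelial genes to 7.58, 27.32 and 11.53 RPKM, with Cdh5 and Esam at 0 at E10.5. The 10 macrophage genes summed to 3.1, 10.3 and 6.2 RPKM with C1qb and Tyrobp at 0 in every capture, the 4 erythroid genes to 1.3, 5.6 and 5 RPKM with no globin among the values, and the 7 neural genes to 10.9, 26.5 and 9.7 RPKM. None of these lists had a call on capture means. In the fit of mean log2 values Gata3 of the mesonephric list (-1.27, adjusted p = 0.00154) and Mc2r (-2.32, adjusted p = 0.00428) and Hoxb9 (-0.84, adjusted p = 0.00877) of the adrenal list were lower at E13.5. Without the clusters that score highest for germ, endothelial and mesonephric markers 94 genes were higher and 10 lower, and Alkbh5, Col18a1, Gfra3, Gstm6, Hsd3b1, Hsf2 and Rhox8 were among the genes no longer called.

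Cells of all stages were grouped into 8 clusters on 73 marker genes to ask whether the differences are also seen inside 1 group of cells. Cluster 1 was the largest at both stages, with 27 of 59 cells at E10.5 and 26 and 35 of 56 at E13.5. It scores highest for interstitial markers but has none of them among its 10 leading genes, so it was left without a name. At E13.5 there were 27 cells in a Sertoli-like cluster, 5 in a Leydig-like cluster and 11 in a coelomic-epithelium-like cluster. The clusters were rebuilt from the values and their sizes are not compared between stages. Cluster 1 was not alike at both stages in every clustering marker. Acta2 averaged 0.75 RPKM over its E10.5 cells against 459 RPKM over its E13.5 cells. Tcf21 averaged 37.8 against 272 RPKM and Mc2r 147 against 13 RPKM, while Nr2f2 was close, with 258 against 247 RPKM. Whether a change in the mix of cells inside the cluster adds to its differences was not tested.

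Within cluster 1, with the clustering markers left out, 16 of 11640 genes were called (0.137%), all higher at E13.5. Of the 16, 15 were also called over all cells, which include the cells of the cluster. Wnt5a had a mean of 1.39 RPKM over the cluster's E10.5 cells and of 94.2 and 115.9 RPKM over those at E13.5 (log2 difference 5.47, SE 0.664, adjusted p = 0.00892). Col6a1 was at 0.0116, 43.6 and 38 RPKM (5.37, SE 0.701, adjusted p = 0.00892) and Ednra at 0.371, 67.1 and 63.2 RPKM (5.59, SE 0.706, adjusted p = 0.00892). Bgn was at 2.32, 96.5 and 69.5 RPKM (4.64, adjusted p = 0.0106), Hoxd10 at 0.0234, 56.6 and 44 RPKM (5.64, adjusted p = 0.00892) and Clca1 at 0.749, 82 and 97.5 RPKM (5.69, adjusted p = 0.00795). Ren1, the only gene of the steroid list among the 16 (the main steroid enzymes were clustering markers and not tested), was at 0.00865, 74.8 and 149 RPKM (6.72, SE 1.127, adjusted p = 0.043). The others were Ptrf, Mgp, Gucy1a3, C1qtnf7, Enc1, Tmem176b, S100a11, Itm2a and Anxa6. Without the first E13.5 capture no gene of the cluster was called by limma, with 352 at an unadjusted p under 0.05, and without the second 8 were.

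Several genes with large differences over all cells were not called inside the cluster, and Defb19, Ptgds and Aard were clustering markers and not tested there. Aldh1a1 was at 0.0706 RPKM in the cluster's E10.5 cells and at 113.5 and 161 RPKM at E13.5 (log2 difference 6.99, SE 1.332, adjusted p = 0.0983). Gstm2 had a difference of 3.66 in the cluster and of 6.31 over all cells, Kctd14 of 4.13 and 6.51, and Inha of 1.63 and 3.72. All 27 Sertoli-like cells of E13.5 held Aldh1a1, Kctd14, Clu, Gstm1, Gstm2 and Gstm6, with means of 1100 RPKM for Aldh1a1 and 4248 RPKM for Gstm1. All 5 Leydig-like cells also held Aldh1a1 (mean 1488 RPKM), Clu, Gstm1 (456.7 RPKM) and Gstm2, while Kctd14 was in 2 and Gstm6 in 1 of them. The Sertoli markers Defb19 (mean 1476 RPKM), Aard and Ptgds were in 5, 3 and 2 of these 5 Leydig-like cells. The stricter doublet rule removed 4 and 1 cells of the E13.5 captures, and the Leydig-like cluster holds 4 and 1. Whether these are the same cells, or mixtures of 2 cell types, was not tested. Inha had a mean of 453.9 RPKM in the Leydig-like and of 141 RPKM in the Sertoli-like cells. In the 61 cluster 1 cells of that stage Aldh1a1 was in 20, Kctd14 in 15, Clu in 18, Gstm1 in 40, Gstm2 in 48 and Gstm6 in 5. Wnt5a showed the reverse order, in 56 of the 61 cells of cluster 1 (mean 106.7 RPKM) and in 12 of the 27 Sertoli-like cells (9.68 RPKM). Differences between the clusters were not tested.

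Genes that were lower over all cells were lower inside the cluster by about the same amount at the median, though none passed the test there. Of the 12 that could be tested in it all 12 were negative, with a median of -2.67 over all cells and of -2.88 in the cluster. They were picked for a lower level over all cells, which include those of the cluster, so agreement in sign is largely built in. Lin28a was at 20 RPKM in the cluster's E10.5 cells and at 0.00416 and 0.00935 RPKM at E13.5 (log2 difference -4.38, SE 0.943, adjusted p = 0.158). Gfra3 was at 75.4, 0.313 and 0.0372 RPKM (-6.03, adjusted p = 0.211), and Sod1 at 1865, 155 and 400 RPKM (-2.9, SE 0.503, adjusted p = 0.0572). At E10.5 both Lin28a and Gfra3 were spread over cluster 1 and the other large cluster of that stage, cluster 6, with Lin28a in 11 of 27 and 16 of 23 cells and Gfra3 in 18 of 27 and 14 of 23. Of the genes called higher over all cells that could be tested in cluster 1, all but 1 were positive there. Their median was 2.96 against 3.75 over all cells, and the same overlap of cells limits what their signs show.

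**Figure D4:**
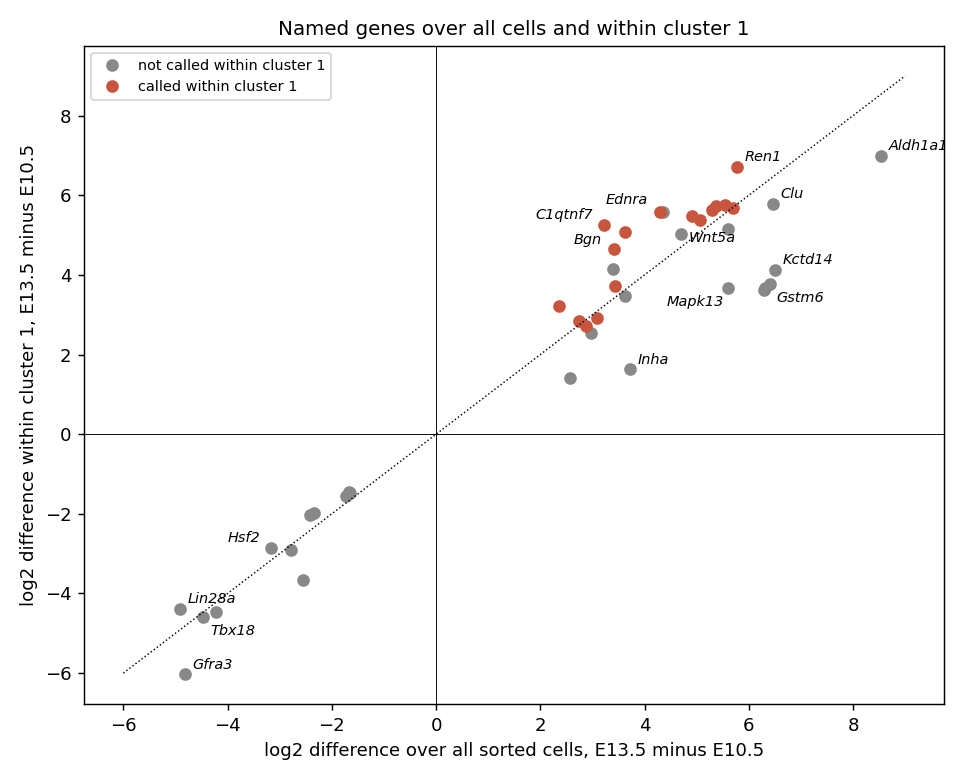
Log2 difference (E13.5 minus E10.5) of named genes over all sorted cells on the horizontal axis and within cluster 1 on the vertical axis; red points are called within the cluster and the dotted line marks equal differences. Aldh1a1, Kctd14, Gstm6 and Inha lie below the line on the right, and Ren1, Bgn and Ednra above it. Genes lower at E13.5 lie on both sides of it, with Gfra3 (-4.81 and -6.03) and Map1b (-2.56 and -3.67) further below.

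The stages between were sequenced to 10 M reads, so their levels are set beside these with that difference in depth. Of the genes called higher 76 had passed the midpoint between the E10.5 and E13.5 log2 levels in both captures of E11.5, and 100 in both captures of E12.5. Of the 13 lower genes 7 had done so in both E11.5 captures and 13 in both E12.5 captures. These counts cover only genes picked for a distance between E10.5 and E13.5, with 1 capture at E10.5. They were not set beside all genes tested and do not date a change. Kctd14 had means of 206 and 546 RPKM at E11.5, above both of its E13.5 means. Aldh1a1 came later, with 7.07 and 26.9 RPKM at E11.5 and 157 and 304 RPKM at E12.5. Gfra3 was still at 28.4 and 63.7 RPKM at E11.5 and at 5.17 and 0.466 RPKM at E12.5. Lin28a was at 1.26 and 0.769 RPKM at E11.5 already.

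**Figure D5:**
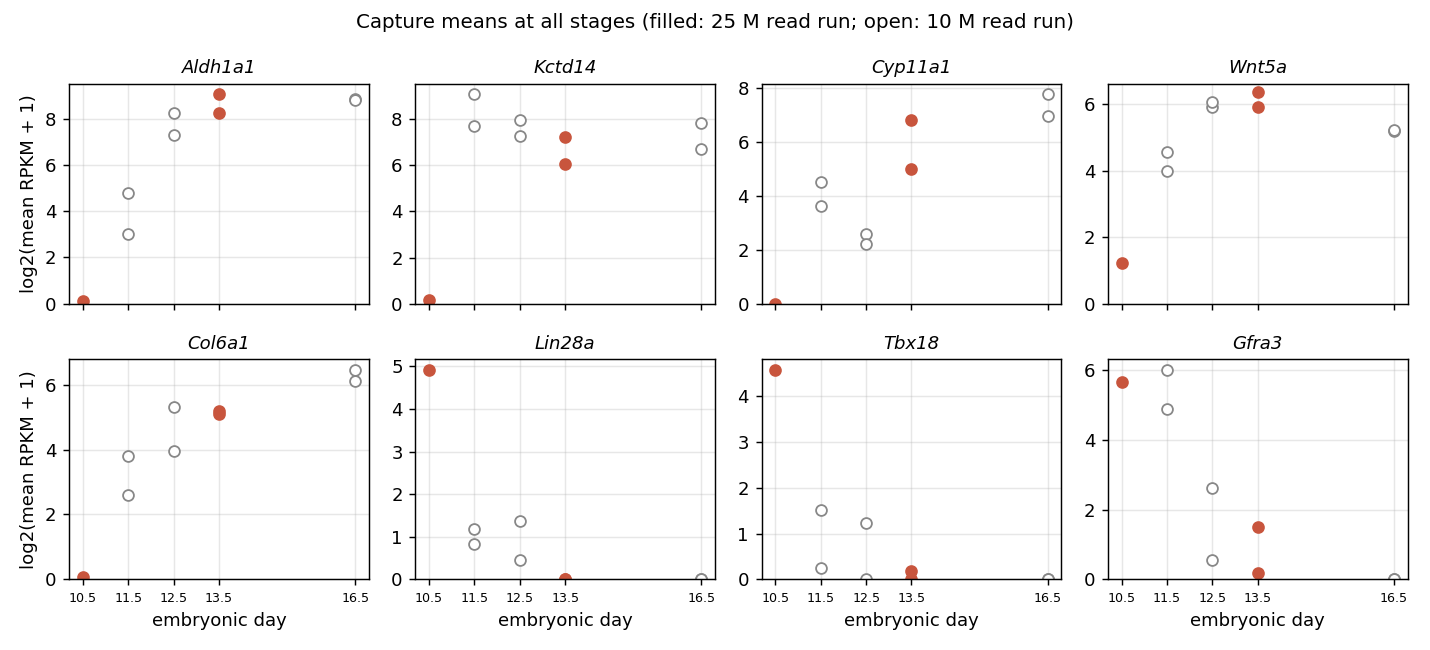
Mean RPKM per capture on a log2(RPKM + 1) scale for 8 genes at 5 stages; filled points are from the 25 M read run and open points from the 10 M read run. Aldh1a1 climbs from 0.0928 RPKM at E10.5 through 7.07 and 26.9 RPKM at E11.5 to 538 and 307 RPKM at E13.5, and Lin28a drops from 29.2 RPKM after E10.5.

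Promoter sequence was looked at because Nr5a1 marks these cells and SOX factors act in the lineage. In the 250 bases before each start in RefSeq (GRCm38.p6), the Nr5a1 motif AAGGTCA was found, on either strand, in 3 of 76 genes called higher that have an entry (3.95%), in 3.37% of all tested genes and in 4.7% of all genes. The SOX motif AACAAT was in 4 of the 76 (5.26%), in 6.52% of tested genes and in 10.9% of all. The shorter nuclear receptor hexamer AGGTCA, which lies inside the first motif and was added after values were seen, was in 10 of 76 (13.2%), in 12.8% of tested genes and in 15.8% of all. Shares in the called genes were thus near those in all tested genes. Among the named genes, the matches fell in Inha, Hoxd10, Cyp11a1, Amt and Tubb5. The following lines show 30 bases around the match in Inha, Hoxd10 and Cyp11a1, which rose, and in Amt, which fell. Each is given 5′ to 3′ on the gene's strand, with the matched letters in capitals.

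Inha, chr1:75507528-75507557, plus strand, hexamer 69 bases before the start: ttggggattggcAGGTCAactttgaagagt

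Hoxd10, chr2:74691810-74691839, plus strand, hexamer on the opposite strand 69 bases before the start: ctggggaacacgTGACCTgcaaggaggctg

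Cyp11a1, chr9:58014912-58014941, plus strand, hexamer 28 bases before the second of 2 listed starts: gaggaaggggggAGGTCAccgctccatcag

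Amt, chr9:108296655-108296684, plus strand, full Nr5a1 motif on the opposite strand 240 bases before the start: tggagaacttTGACCTTctggaggctggga

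Of these genes Hoxd10 was also called within cluster 1, and its whole window is shown because it is the only HOX gene that was called. It covers chr2:74691641-74691890 on the plus strand, with the hexamer in capitals: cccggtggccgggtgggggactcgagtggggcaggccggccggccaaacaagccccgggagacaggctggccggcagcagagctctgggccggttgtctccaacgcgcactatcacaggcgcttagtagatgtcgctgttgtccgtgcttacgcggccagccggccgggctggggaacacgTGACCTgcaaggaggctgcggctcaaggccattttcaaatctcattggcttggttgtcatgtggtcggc. A match of letters is a description of the sequence and does not show that a protein binds there.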

How the data were processed

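The deposited table holds RPKM for 16459 genes in each cell, a unit read from the scale of the values. Builds GRCm38.p3 and mm10 are named in the submitters' processing notes, with aligner, counting tool and annotation not given in the sources used here. Cells with at least 3000 genes above 0 were kept, which removed none at E10.5 or E13.5. The mean RPKM over the cells of each of 9 captures was computed. Its log2, after adding 1, went into limma 3.58.1 (R 4.3.3; trend, robust empirical Bayes) with a factor of 5 stages. Genes entered if 2 or more captures had a mean of 1 RPKM or above. Benjamini-Hochberg adjustment ran over all genes tested, with a threshold of 0.05. The fit was tested on simulated captures. Shares count cells at 1 RPKM or more. Cells were clustered by Ward linkage (scipy 1.17.1) on scaled log2 values of markers.

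Named genes passed the threshold, did not overlap between stages and were not predicted models. They averaged at least 5 RPKM over the captures of the higher stage and had 20% of cells in each of these captures. They ranked in the 12 largest differences each way, and up to 4 called members of each of 37 gene lists were added. A list without a call gave values for up to 2 members, and other genes are fixed markers or were named after their values were seen. The list of Sertoli genes and the others, the members and the tests were chosen with earlier results of these data known. Alternatives are in the closing part.

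Promoter windows come from RefSeq (GRCm38.p6), where 44 of the 131 called symbols had no entry. For 22 of 29 named genes with an entry, the bases after the start were found in a GENCODE M21 transcript of the gene. Depth was implied from the smallest step of the values of a cell times the exonic length of the genes.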

Additional observations from a re-analysis of the deposited data

How the results depend on the processing

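Direction was the same in each alternative fit that tested the gene for the 42 called genes that the naming rule gives. The count of 131 called genes became 421 with the 25 M read run alone (spread from the 2 E13.5 captures only), 46 with a pseudocount of 10, 257 without the filter on low values (67 higher and 190 lower), 238 with the mean of log2 values (69 higher and 169 lower), 42 without trend or robust fitting, 1 without possible doublets and, in an alternative added after the data were seen, 11 with cells of clusters 1, 5 and 6 only. The cause was not tested, but the last 2 also leave fewer cells. In the fit of the 25 M read run alone the spread of the E13.5 captures was pooled over genes. Its p-values, those of Actb, Tubb5 and Set above included, thus do not measure each gene's own spread. Without a second, stricter kind of doublet, also added then, 94 genes were higher and 11 lower. Alkbh5, Cyp11a1, Cyp17a1, Hsf2, Igfbp7, Sox11 and Star were among the genes no longer called in that fit. Leaving out 1 capture gave 41 to 126 genes, lowest without the first E13.5 capture. The 16 genes called within cluster 1 became 0 with 6 clusters (673 at an unadjusted p under 0.05 in limma), 12 with 10 clusters, and 0 to 8 when an E13.5 capture was left out. In a 25 M read fit Lin28a and Tbx18 could not be tested, since they reach 1 RPKM in 1 capture only.

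Among uncalled genes, 9 changed sign. Without possible doublets the difference was 0.447 for Top2a, -0.369 for Ndufa4, 0.294 for Jag1 and -0.847 for Kit. With the mean of log2 it was -0.015 for Cox6a1, -0.009 for Ndufa4, 0.013 for Jag1 and -0.341 for Kit. Leaving out the first or the second E13.5 capture, it ranged from -0.204 to 0.558 for Cox6a1, -0.409 to 0.544 for Ndufa4, -0.012 to 2.766 for Tubb3, -0.775 to 2.78 for Akr1b7 and -1.723 to 0.467 for Cdkn2d, each lower without the first, and from -0.9 to 0.118 for Ddx3y and -0.158 to 0.395 for Kit, each lower without the second. Median-ratio scaling gave -0.006 for Ndufa4, leaving out other cell types 0.27 for Jag1, leaving out the stricter doublets -0.542 for Kit, and clusters 1, 5 and 6 alone -0.061 for Ndufa4, 0.368 for Jag1 and -0.787 for Kit. At 5 RPKM in place of 1, 41 of 246 shares moved beyond their interval.

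No paired analysis was possible because E10.5 has 1 capture and its number in accession order pairs it with no capture of E13.5. In the main test E10.5 could not be left out. Depth implied by the values was close in the 3 captures, but values of 1 RPKM can stand for few reads, and shares near 0 are limited by 56 to 59 cells.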

Other observations

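Some gene families were looked at after their values were seen, so no test is given for a family. Of 11 tested tubulins none rose, Tubb5 fell, and 7 differences were negative. Of 4 collagen VI genes Col6a1 rose. Of 8 tested annexins, calcium-dependent membrane-binding proteins, 4 rose. Anxa4 went from 0.0132 RPKM at E10.5 to 13.8 and 13.7 RPKM at E13.5 (log2 difference 3.86, SE 0.668, limma adjusted p = 0.017) and from 0 of 59 cells to 25 and 18 of 56. Anxa6 was at 19.2, 172 and 126 RPKM (2.88, SE 0.424, adjusted p = 0.0063). S100a11, a partner protein of annexins, was at 51.6, 607 and 329 RPKM (3.09, SE 0.423, adjusted p = 0.00409), and 2 of 7 tested S100 genes rose. Of 16 tested serpins, which mostly inhibit proteases, 5 rose, with Serpine2 of the Sertoli list among them, and all 16 differences were positive. Serpinb1a went from 0.00209 to 36.6 and 26.5 RPKM (5, SE 0.854, adjusted p = 0.0166). Serpins include near-identical copies between which reads may be shared.

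Gas6 and its receptor Axl, a tyrosine kinase of the TAM family, were both higher at E13.5. Axl was at 4.24 RPKM at E10.5 and at 53.8 and 59.5 RPKM at E13.5 (log2 difference 3.46, SE 0.457, limma adjusted p = 0.00312), in 15 of 59 and in 53 and 46 of 56 cells. Gas6 was at 0.446, 17.6 and 21.3 RPKM (3.82, SE 0.732, adjusted p = 0.0286), in 1 of 59 and in 22 and 16 of 56 cells. With the mean of log2 values the adjusted p was 0.101 for Gas6 and 0.0063 for Axl. Without cells of other types it was 0.0542 for Gas6 and 0.00691 for Axl. Without the first E13.5 capture the adjusted p was 0.189 for Gas6, 0.143 for Anxa4 and 0.181 for Serpinb1a, and without the second 0.135, 0.0782 and 0.0749.

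Nr2f1, a nuclear receptor of mesenchyme, is a gene for which the measure decides the call. It was at 59.9 RPKM at E10.5 and at 2.68 and 3.96 RPKM at E13.5, in 55 of 59 and in 11 and 16 of 56 cells. Its difference was -3.83 with the log2 of the mean (SE 0.846, limma adjusted p = 0.061) and -4.24 with the mean of log2 values (SE 0.467, adjusted p = 1.64e-05). Hmga1, a chromatin protein of the Lin28 and let-7 circuit, behaved alike, with -3.29 (adjusted p = 0.101) and -4.06 (adjusted p = 6.57e-05).

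With the mean of log2 values 8 of 23 tested immediate early and stress genes passed the test (median 0.03). Egr1, Btg2, Nr4a1, Zfp36, Ier3 and Egr2 were higher at E13.5 and Hspa1a and Hspa1b lower. Egr1 was at 132 RPKM at E10.5 and at 703 and 780 RPKM at E13.5, in 43 of 59 and in 56 and 55 of 56 cells.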
